A study of Rattus norvegicus with 12 samples.

Results

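The comparison described here sets INS-1 832/13 cells that carried an adenovirus for ChREBPβ against cells that carried an adenovirus for GFP, both kept in 11 mM glucose. Its members are the 6 libraries labelled with these viruses and this glucose level, 3 for each virus, out of 12 libraries in the series, and the 14669 of 28727 named genes with enough counts to be tested. The other 6 libraries hold the same 2 viruses at 2 mM glucose. INS-1 832/13 is a rat insulinoma line, so every library comes from 1 tumour-derived clone. The ChREBPβ virus carried the mouse coding sequence with an mCherry tag and the control virus carried GFP, so both groups were transduced cells. They were cultured for 48 h by the description of the experiment, while the general adenovirus methods name a longer time. Because the RNA was amplified ahead of library preparation, reads are not independent molecules. Nothing in the labels says whether the 3 libraries of a group came from separate cultures, while the study's text calls its repeats independent, and p-values measure only the spread between these libraries.

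ChREBP, encoded by Mlxipl, is a transcription factor that is activated by products of glucose metabolism and binds E-box pairs together with its partner Mlx. ChREBPβ is the short isoform, made from its own promoter, which lacks the inhibitory domain that keeps the long isoform quiet at low glucose. In the liver and in β-cells ChREBP is known for raising genes of glycolysis, fat synthesis and the glucose-sensing protein Txnip. High glucose alone activates the ChREBP of the control cells, so the comparison at 11 mM asks what the added isoform changes beyond glucose.

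Reads counted on named genes totalled 36219167 to 46654823 in the GFP libraries and 57088794 to 60531215 in the ChREBPβ libraries at 11 mM, so the ChREBPβ group was sequenced more deeply throughout. Levels are given as CPM, read counts brought to a common library size with edgeR's TMM factors, which express each gene relative to the bulk of the genes, and every log2 fold change is ChREBPβ over GFP, with its standard error after the ± sign. The rat gene Mlxipl was at 202, 212 and 208 CPM with GFP and 201, 181 and 183 CPM with ChREBPβ, and an entry of the table named ChREBPb, whose sequence is not stated, was at 64.7, 73.3 and 66.1 CPM with GFP and 98.3, 84.3 and 81.4 CPM with ChREBPβ. The first thus lay below the control (log2 fold change -0.14, under the minimum of 1.2-fold used here) and the second above it (0.37), and the groups are called by their labels. As markers of the line, Ins1, Iapp, Pdx1, Nkx6-1 and Slc2a2 were present in every library. The 10 β-cell markers summed to 11413 to 12436 CPM with GFP and 5512 to 5873 CPM with ChREBPβ. Of the other islet types, Gcg was present, while Sst, Ppy and Rbp4 had at most 2 counts in a library. In any of the 6 libraries the 7 acinar markers summed to at most 6.71 CPM, the 5 of 6 leukocyte markers in the table to at most 1.13 CPM and the 4 of 5 endothelial markers to at most 3.09 CPM. Prss1, Pnlip, Cftr, Spp1, Dcn, Lum and Ptprc had no count at all. The 5 duct markers summed to 104 to 115 CPM with GFP and 151 to 155 CPM with ChREBPβ, nearly all of it Krt7. The 6 of 7 fibroblast markers in the table summed to 148 to 154 and 81.4 to 83.5 CPM, nearly all of it Thy1. In such bulk samples fewer cells of a type and less RNA per cell cannot be told apart.

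The perfect E-box CACGTG was searched in the 300 bases around each RefSeq start site, 250 before and 50 from the start (GRCr8). The motif reads the same on both strands. It stood in 9.63% of the 10110 tested genes that have such an entry, in 11.1% of the 1502 genes that were higher with ChREBPβ at 11 mM and in 7.52% of the 1994 that were lower. Among genes changed at least 2-fold it stood in 10.5% of 382 higher and 3.61% of 277 lower genes. The promoters of 2 genes are shown because Pklr, the liver and β-cell pyruvate kinase, is a long-known ChREBP target and because Prok2 was the one gene among the 15 largest increases whose window holds the motif, out of 9 with an entry. CACGTG is in capitals. The Pklr window, chr2:176841014-176841313 on the plus strand, does not hold these exact letters. Pairs of imperfect E-boxes, the form of the ChREBP element that Pklr is known for, were not searched across genes. The absence of CACGTG thus says nothing about that element. By its letters the Pklr window does hold such a pair, cacggg and cccgtg, in the stretch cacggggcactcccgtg. The Prok2 window, chr4:133917884-133918183 on the minus strand, holds CACGTG once, starting 120 bases before the start site.
Pklr: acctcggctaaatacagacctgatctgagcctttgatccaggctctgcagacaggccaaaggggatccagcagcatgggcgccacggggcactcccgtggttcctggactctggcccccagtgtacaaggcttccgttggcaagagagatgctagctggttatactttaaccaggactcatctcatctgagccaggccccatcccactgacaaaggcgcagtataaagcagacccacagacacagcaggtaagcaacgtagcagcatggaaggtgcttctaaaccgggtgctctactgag
Prok2: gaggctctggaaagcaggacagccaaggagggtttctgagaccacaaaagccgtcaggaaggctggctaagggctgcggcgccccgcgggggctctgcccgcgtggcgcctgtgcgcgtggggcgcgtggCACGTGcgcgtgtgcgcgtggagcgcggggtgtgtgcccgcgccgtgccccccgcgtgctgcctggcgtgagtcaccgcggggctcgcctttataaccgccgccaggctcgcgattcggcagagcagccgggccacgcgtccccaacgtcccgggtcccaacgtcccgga

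At 11 mM glucose, 4904 of 14669 tested genes were differentially expressed between ChREBPβ and GFP (33.4%), by edgeR's quasi-likelihood test with an adjusted p under 0.05 and with 1.2-fold as the smallest change counted. Of all tested genes 2102 were higher (14.3%) and 2802 lower (19.1%) with ChREBPβ. The 3 libraries of one group lay entirely above or below those of the other for 8229 genes (56.1%). The split leaned further to lower genes when library totals replaced the TMM factors, 1532 higher against 3698 lower. With every library thinned to the smallest total, 2046 genes were higher and 2561 lower. Most changes were small, with a median size of 0.55 on the log2 scale among the higher and 0.53 among the lower genes, and 1106 of the higher and 1582 of the lower genes changed by less than 1.5-fold. At 2-fold or more, 571 genes were higher (3.89%) and 421 lower (2.87%). The upper end was longer on the side of increases. There were 190 genes at least 4-fold higher, 68 at least 8-fold and 32 at least 16-fold, against 37, 5 and 0 genes lower by those folds.

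Where the mean reached 5 CPM, the 15 largest increases began with a cyclin, a calcium-binding protein and a matrix glycoprotein. Ccnd1, which encodes the G1 cyclin D1, was at 1.66, 2.01 and 2.35 CPM with GFP and 122, 133 and 135 CPM with ChREBPβ (log2 fold change 6.01 ± 0.09, edgeR adjusted p = 3.33e-20). S100a4, a small calcium-binding protein, was at 4.05, 3.91 and 3.60 CPM with GFP and 201, 239 and 252 CPM with ChREBPβ (log2 fold change 5.91 ± 0.09, edgeR adjusted p = 2.06e-20). For both genes the lowest ChREBPβ library stood more than 10-fold above the highest GFP library. Tnxb, the matrix glycoprotein tenascin X, was at 1.64, 1.50 and 1.82 CPM with GFP and 95.4, 90.2 and 83.4 CPM with ChREBPβ (log2 fold change 5.75 ± 0.09, edgeR adjusted p = 2.15e-20). Adamts8, a secreted metalloprotease, was at 0.465, 0.348 and 0.867 CPM with GFP and 21.0, 24.3 and 22.2 CPM with ChREBPβ (log2 fold change 5.28 ± 0.15, edgeR adjusted p = 4.83e-16). Islr2, a membrane protein with immunoglobulin and leucine-rich repeat domains, was at 1.02, 1.21 and 1.63 CPM with GFP and 42.8, 45.3 and 46.0 CPM with ChREBPβ (log2 fold change 5.11 ± 0.12, edgeR adjusted p = 3.94e-17). No library of one group came near the range of the other for these 5 genes, and each was close to silent in the control cells.

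Dtx1, an E3 ubiquitin ligase of the Notch pathway, stood at 7.30, 7.20 and 7.47 CPM with GFP and 151, 157 and 148 CPM with ChREBPβ (log2 fold change 4.38 ± 0.05, edgeR adjusted p = 4.56e-22). The spread within each group was small beside this difference. Ngfr, the p75 neurotrophin receptor, stood at 5.62, 4.98 and 4.97 CPM with GFP and 91.9, 103 and 101 CPM with ChREBPβ (log2 fold change 4.25 ± 0.08, edgeR adjusted p = 7.44e-19). Aif1l, an actin-binding protein, stood at 10.2, 10.5 and 11.6 CPM with GFP and 168, 188 and 186 CPM with ChREBPβ (log2 fold change 4.07 ± 0.07, edgeR adjusted p = 7.74e-20). The remaining genes of the 15 largest increases were Ntng2, a membrane-anchored netrin (4.12), Cx3cl1, the chemokine fractalkine (3.79), Pla2g2f, a secreted phospholipase (3.74), Ihh, the Indian hedgehog ligand (3.70), Acan, the proteoglycan aggrecan (3.55), Prok2, the secreted peptide prokineticin 2 (3.51), and the unnamed locus LOC688553 (3.49), all on the log2 scale. In each of them the 3 ChREBPβ libraries lay above the 3 GFP libraries, a condition of their choice.

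A further 6 genes had at most 3 counts in every GFP library and at least 30 in every ChREBPβ library, and none showed the opposite. These limits are on raw counts. The ChREBPβ libraries were sequenced more deeply, so this direction was easier to meet than the opposite. G6pc, the catalytic subunit of glucose-6-phosphatase, which releases free glucose, had 1, 0 and 0 counts with GFP and 55, 106 and 98 with ChREBPβ. That is 259 counts against 1, a ratio of 197 after scaling. Its exact 95% interval of 35.1 to 7827 covers counting error only and leaves out the spread between libraries. The 6 genes were chosen by these same counts, so intervals above 1 follow from the choice and add no support. Crispld2, a secreted protein, had 0, 3 and 0 counts with GFP and 114, 119 and 116 with ChREBPβ, a ratio of 88.7 (30.1 to 432). Pdgfrb, the receptor for platelet-derived growth factor B and one of the fibroblast markers, had 1, 0 and 0 counts with GFP and 50, 35 and 55 with ChREBPβ, a ratio of 107 (18.8 to 4244), in libraries where the fibroblast markers Dcn and Lum had no count. Trim29, Ccdc154 and 1 locus without a gene symbol had ratios of 81.5 (22.3 to 678), 70.9 (19.4 to 590) and 59.8 (23.1 to 221). Even in the ChREBPβ libraries these 6 genes averaged between 0.824 and 2.05 CPM.

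The 15 largest decreases, by the same rule, are given next. Oxtr, the oxytocin receptor, was at 13.6, 13.7 and 11.9 CPM with GFP and 3.48, 2.98 and 2.71 CPM with ChREBPβ (log2 fold change -2.09 ± 0.12, edgeR adjusted p = 1.94e-11). Gcg, which encodes proglucagon and is transcribed in this line, was at 1719, 1605 and 1647 CPM with GFP and 451, 481 and 502 CPM with ChREBPβ (log2 fold change -1.79 ± 0.04, edgeR adjusted p = 3.58e-17). Stc1, the hormone stanniocalcin 1, was at 135, 149 and 139 CPM with GFP and 43.7, 42.8 and 40.4 CPM with ChREBPβ (log2 fold change -1.74 ± 0.05, edgeR adjusted p = 1.47e-16). Groups that do not overlap were a condition of the choice, and 56.1% of all tested genes met it. P2ry1, a receptor for extracellular ADP, was at 60.2, 63.7 and 58.4 CPM with GFP and 20.6, 19.9 and 19.1 CPM with ChREBPβ (log2 fold change -1.61 ± 0.05, edgeR adjusted p = 1.39e-15). Enpp2, the secreted enzyme autotaxin, was at 56.1, 57.6 and 56.5 CPM with GFP and 19.2, 18.2 and 21.3 CPM with ChREBPβ (log2 fold change -1.53 ± 0.06, edgeR adjusted p = 1.91e-14). Cyp4a8, a fatty acid hydroxylase, was at 178, 186 and 175 CPM with GFP and 58.1, 58.8 and 59.6 CPM with ChREBPβ (log2 fold change -1.61 ± 0.04, edgeR adjusted p = 1.95e-16). These decreases ran at about the same size in each of the 3 libraries. The others of the 15 were Tmem163 (-1.66), a zinc transporter, Crhr1 (-1.65), a receptor for corticotropin-releasing hormone, Cdh23 (-1.56), a cadherin, Glb1l2 (-1.55), Gfra1 (-1.55), the co-receptor for GDNF, Slc16a10 (-1.50), a carrier of aromatic amino acids, Abhd15 (-1.49), St3gal1 (-1.48), a sialyltransferase, and Dlg2 (-1.47), a synaptic scaffold protein.

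**Figure D1:**
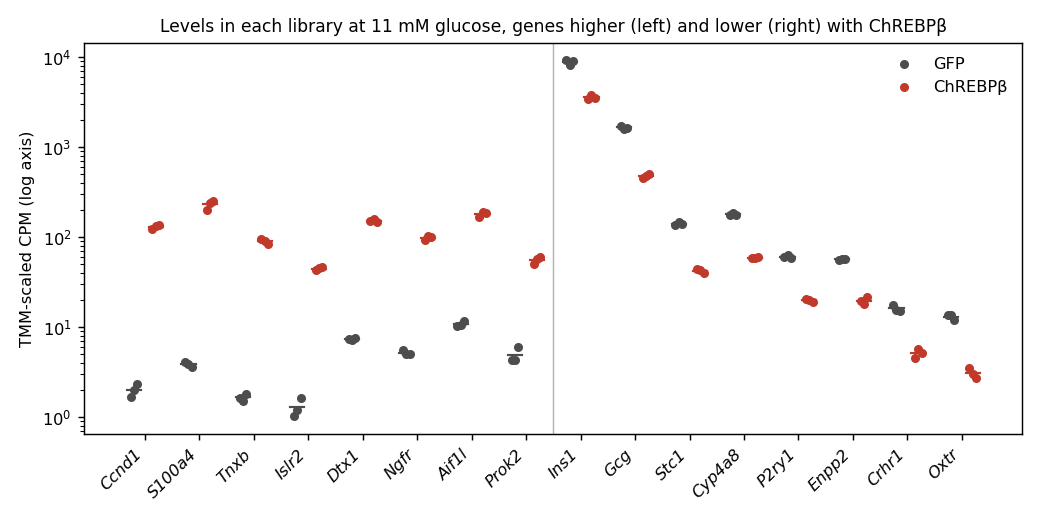
TMM-scaled CPM on a log axis in each of the 6 libraries at 11 mM glucose for 8 genes that were higher and 8 that were lower with ChREBPβ. Points are libraries, 3 for each virus, and short lines are group means. Ccnd1 moved from a mean of 2.01 to 129.9 CPM and Ins1 from 8787 to 3605 CPM. No gene shown has overlapping groups, which was a condition of the choice for all but Ins1.

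Gene groups were described with 37 lists of genes that work together, by the number of tested members that rose or fell. These counts are to be read beside the shares over all tested genes, 14.3% higher and 19.1% lower. A list whose counts lie near these shares does not stand out from the other genes. Each list also has a median log2 fold change, beside -0.02 over all tested genes. The median was positive for 23 lists and negative for 14. It was highest for the S100 proteins (1.48), known ChREBP targets (0.93) and glycolysis (0.42), and lowest for islet hormones (-1.15), granule proteins with prohormone processing (-0.71) and β-cell transcription factors (-0.57). Under library totals the medians of 5 lists that lie near 0 changed sign, those of the Myc network, nucleotide synthesis, G1 cyclins, Nrf2 and antioxidant genes, and AP-1 genes. That of the cytoskeletal genes, within 0.01 of 0, changed sign under 7 alternatives, and that of axon guidance under 2.

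**Figure D2:**
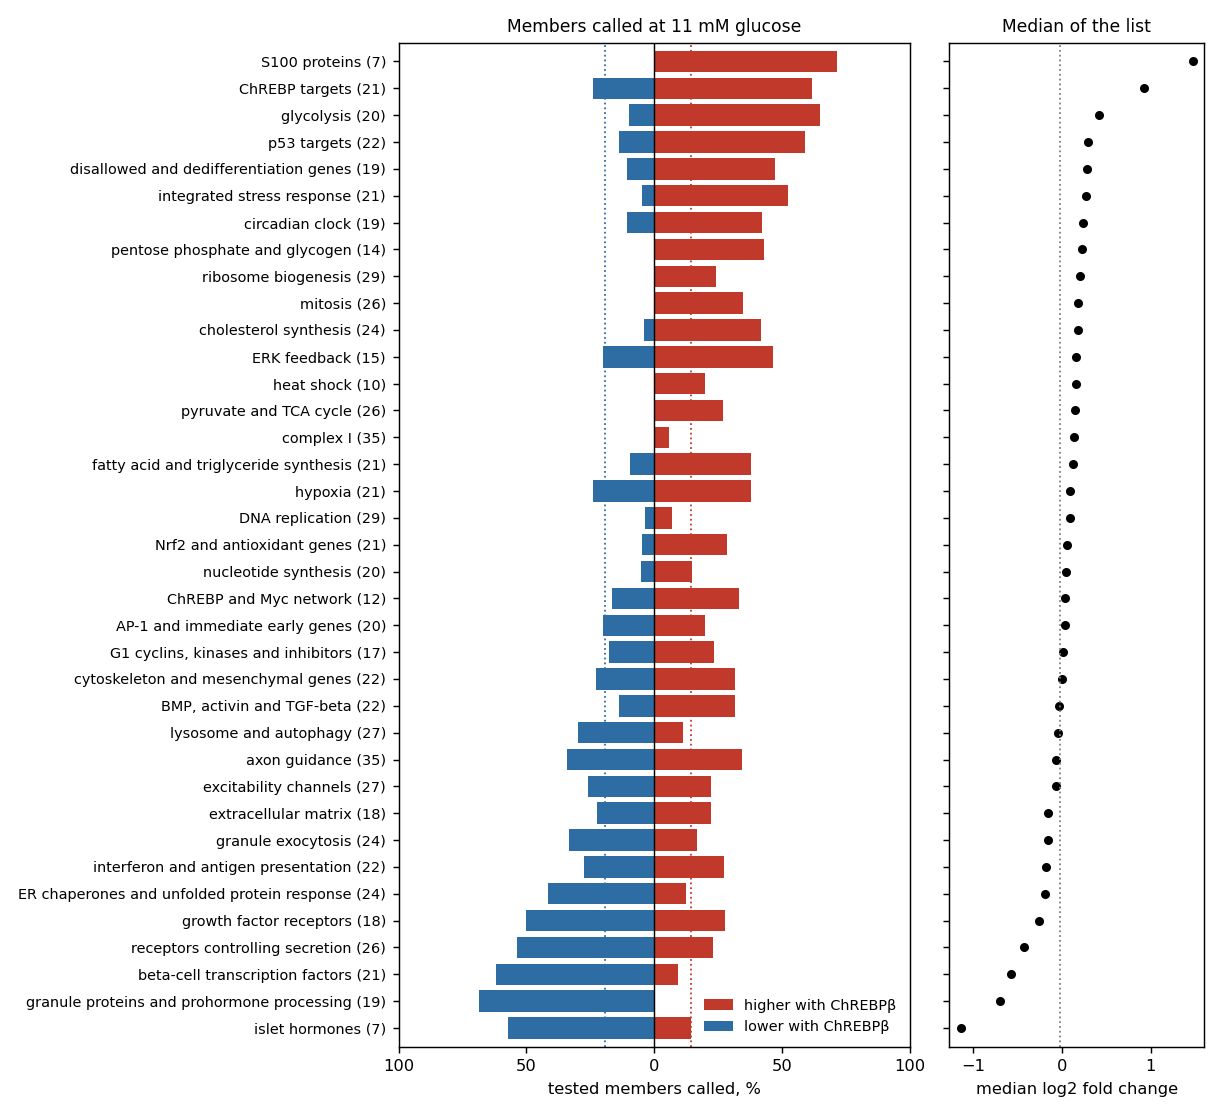
Left, the share of tested members of each of 37 gene lists that were higher (red, to the right) or lower (blue, to the left) with ChREBPβ at 11 mM glucose, in percent, with the number of tested members in brackets and dotted lines at the shares over all 14669 genes (14.3% and 19.1%). Right, the median log2 fold change of each list, with a dotted line at the median of all genes. The lists run from islet hormones, with a median of -1.15, to S100 proteins at 1.48.

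At high glucose the known targets of ChREBP were mostly differentially expressed between the viruses. Of 21 tested members 13 rose and 5 fell. Txnip, which binds thioredoxin and limits glucose uptake, was at 335, 347 and 370.4 CPM with GFP and 662, 659 and 677 CPM with ChREBPβ (log2 fold change 0.93 ± 0.05, edgeR adjusted p = 1.54e-12). Pklr was at 218, 193 and 222 CPM with GFP and 442, 448 and 449 CPM with ChREBPβ (log2 fold change 1.08 ± 0.05, edgeR adjusted p = 1.72e-13). Gpd1, which makes glycerol 3-phosphate for triglycerides, was at 596, 566 and 648 CPM with GFP and 2067, 2341 and 2260.5 CPM with ChREBPβ (log2 fold change 1.88 ± 0.06, edgeR adjusted p = 7.13e-16). All 3 stood about 2-fold or more above the control cells in each library. Angptl8, a secreted regulator of lipoprotein lipase, rose by 1.98 on the log2 scale, Rgs16, which switches off G protein signals, by 1.19, Tm6sf2, which acts in lipid secretion, by 1.06, and Ppp1r3b, a glycogen-targeting subunit of protein phosphatase 1, by 0.91. Not every target followed. Fructose-handling genes were lower, with Khk, the fructokinase, at -0.71 and the fructose transporter Slc2a5 at -1.27, and so was Pnpla3 (-0.71). Arrdc4, the arrestin relative of Txnip, was at 275, 277 and 278 CPM with GFP and 227, 228 and 235 CPM with ChREBPβ, a log2 fold change of -0.27. That call was lost with DESeq2, RLE factors, a stricter count filter, thinning, the fit of 2 groups and several libraries left out.

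Of the 12 tested genes of the network of Mlx, Max and Myc, 4 rose and 2 fell. Mycn was at 2.17, 1.98 and 2.43 CPM with GFP and 10.6, 11.7 and 13.6 CPM with ChREBPβ (log2 fold change 2.44 ± 0.12, edgeR adjusted p = 2.69e-12), and Mxi1, a Max partner that represses, at 71.5, 72.0 and 72.9 CPM with GFP and 139.6, 142 and 144 CPM with ChREBPβ (log2 fold change 0.98 ± 0.04, edgeR adjusted p = 6.87e-14). Both were higher in every ChREBPβ library. Mycl (-0.49) and Mxd1 (-0.42) fell, and the obligate partners Mlx (0.08) and Max (0.11) stayed under the minimum fold change.

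Glycolysis rose along most of its length, with 13 of 20 tested members higher and 2 lower. Gpi, which turns glucose 6-phosphate into fructose 6-phosphate, was at 620.3, 589 and 623 CPM with GFP and 1189, 1264 and 1289 CPM with ChREBPβ (log2 fold change 1.03 ± 0.04, edgeR adjusted p = 2.19e-13). Pfkl, the liver phosphofructokinase, was at 196, 168 and 182 CPM with GFP and 329, 364 and 377 CPM with ChREBPβ (log2 fold change 0.97 ± 0.05, edgeR adjusted p = 8.25e-12). Pfkfb3, which makes the activator of phosphofructokinase, was at 50.7, 47.7 and 49.9 CPM with GFP and 94.3, 95.4 and 100.4 CPM with ChREBPβ (log2 fold change 0.97 ± 0.05, edgeR adjusted p = 3.28e-12). The GFP and ChREBPβ libraries were clearly separate for each. Downstream enzymes rose by less, with values such as Pkm at 0.62, Eno1 at 0.48, Aldoa at 0.44, Gapdh at 0.41, Pgk1 at 0.38 and Pgam1 at 0.37. The hexokinase Hk2 (1.56) rose from a mean under 1 CPM with GFP. The glucose transporter Slc2a2 rose by 0.46. Pfkfb2, another form of the activator enzyme, fell by 0.51 on the log2 scale. Aldoc (-0.53) fell as well, at a low level. The Aldoc call was lost with DESeq2, thinned counts and the fit of 2 groups. It was also lost in 5 of the 12 fits that lacked a library (ChREBPβ a, ChREBPβ b, GFP a and GFP c at 11 mM, ChREBPβ c at 2 mM). Reads of Gapdh, Pgk1, Pgam1 and Eno1 can be shared with near-identical processed copies in the genome, so their values are less certain.

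In the pentose phosphate pathway and glycogen metabolism 6 of 14 tested members rose and 0 fell. Of the non-oxidative enzymes Tkt, transketolase, was at 339.9, 329 and 349.7 CPM with GFP and 731, 820.5 and 831 CPM with ChREBPβ (log2 fold change 1.23 ± 0.06, edgeR adjusted p = 1.06e-12), Rpia rose by 0.76 and Taldo1 by 0.59, while the epimerase Rpe (-0.11) did not pass. On the glycogen side Ppp1r3c, which brings protein phosphatase 1 to glycogen, was at 4.76, 3.91 and 4.15 CPM with GFP and 33.7, 35.8 and 36.7 CPM with ChREBPβ (log2 fold change 3.05 ± 0.08, edgeR adjusted p = 8.5e-17), and Pygl, the liver glycogen phosphorylase, at 9.67, 9.29 and 8.40 CPM with GFP and 33.6, 35.9 and 39.7 CPM with ChREBPβ (log2 fold change 2.00 ± 0.07, edgeR adjusted p = 1.41e-14). The synthase Gys1 (0.01) and the branching enzyme Gbe1 (-0.10) did not pass the test.

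Of 26 tested members of pyruvate use and the TCA cycle 7 rose and 0 fell, and 4 rose with library totals. Pc, pyruvate carboxylase, was at 131, 128 and 135 CPM with GFP and 270.1, 287 and 291 CPM with ChREBPβ (log2 fold change 1.10 ± 0.05, edgeR adjusted p = 8.05e-14). Pdhb, a subunit of pyruvate dehydrogenase, was at 146, 144 and 149.5 CPM with GFP and 298, 303 and 315 CPM with ChREBPβ (log2 fold change 1.06 ± 0.04, edgeR adjusted p = 1.34e-14). Pdk2, a kinase that switches pyruvate dehydrogenase off, was at 10.1, 10.3 and 8.29 CPM with GFP and 26.9, 25.3 and 24.6 CPM with ChREBPβ (log2 fold change 1.42 ± 0.08, edgeR adjusted p = 7.47e-12). Each had all ChREBPβ libraries above all GFP libraries. Dlat, another subunit, rose by 0.82. In the cycle itself Cs was at 0.14 and Mdh2 at 0.07, neither past the test. Of 35 tested subunits of complex I 2 rose and 0 fell, Ndufab1 (0.29) and Ndufb8 (0.27), and the median was 0.13. That count was 6 with DESeq2 or RLE factors and without replicate a of ChREBPβ, a of GFP or c of GFP at 11 mM, and 0 with library totals or upper quartile factors and without replicate c of ChREBPβ or b of GFP at 11 mM.

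Fatty acid synthesis showed large increases at 3 of its enzymes. Acly, which makes cytosolic acetyl-CoA from citrate, was at 2715, 2682 and 2786 CPM with GFP and 5417, 5414 and 5581 CPM with ChREBPβ (log2 fold change 1.00 ± 0.04, edgeR adjusted p = 7.97e-15). Acaca, acetyl-CoA carboxylase, was at 155, 183 and 173 CPM with GFP and 613, 577 and 531 CPM with ChREBPβ (log2 fold change 1.75 ± 0.06, edgeR adjusted p = 1.08e-14). Fasn, fatty acid synthase, was at 636, 693 and 633 CPM with GFP and 1752, 1658 and 1572 CPM with ChREBPβ (log2 fold change 1.34 ± 0.06, edgeR adjusted p = 6.94e-13). The 3 steps in a row thus each stood at least about 2-fold above the control in every library. In the whole list of 21 tested members 8 rose and 2 fell. Scd2, a stearoyl-CoA desaturase, rose by 0.40, Lpin1, a phosphatidate phosphatase, by 0.78 and Acss2 by 0.51, while Fads1 (-0.41), a desaturase of polyunsaturated fatty acids, and Acsl4 (-0.38) fell. Srebf1, the other lipogenic transcription factor, was at 143, 136 and 137 CPM with GFP and 127, 119 and 119 CPM with ChREBPβ, a log2 fold change of -0.19 under the minimum. The acyltransferases Gpam (0.09), Dgat1 (-0.13) and Dgat2 (-0.03) did not pass the test either. In cholesterol synthesis 10 of 24 rose and 1 fell, 3 with library totals. Pmvk, a kinase of the mevalonate pathway, was at 31.1, 28.6 and 33.4 CPM with GFP and 43.4, 46.3 and 45.5 CPM with ChREBPβ (log2 fold change 0.54 ± 0.06, edgeR adjusted p = 8e-07), and the enzymes Hmgcs1 (0.43), Mvk (0.44), Fdps (0.47) and Fdft1 (0.43) also rose. Sqle (0.04), squalene epoxidase, did not pass.

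**Figure D3:**
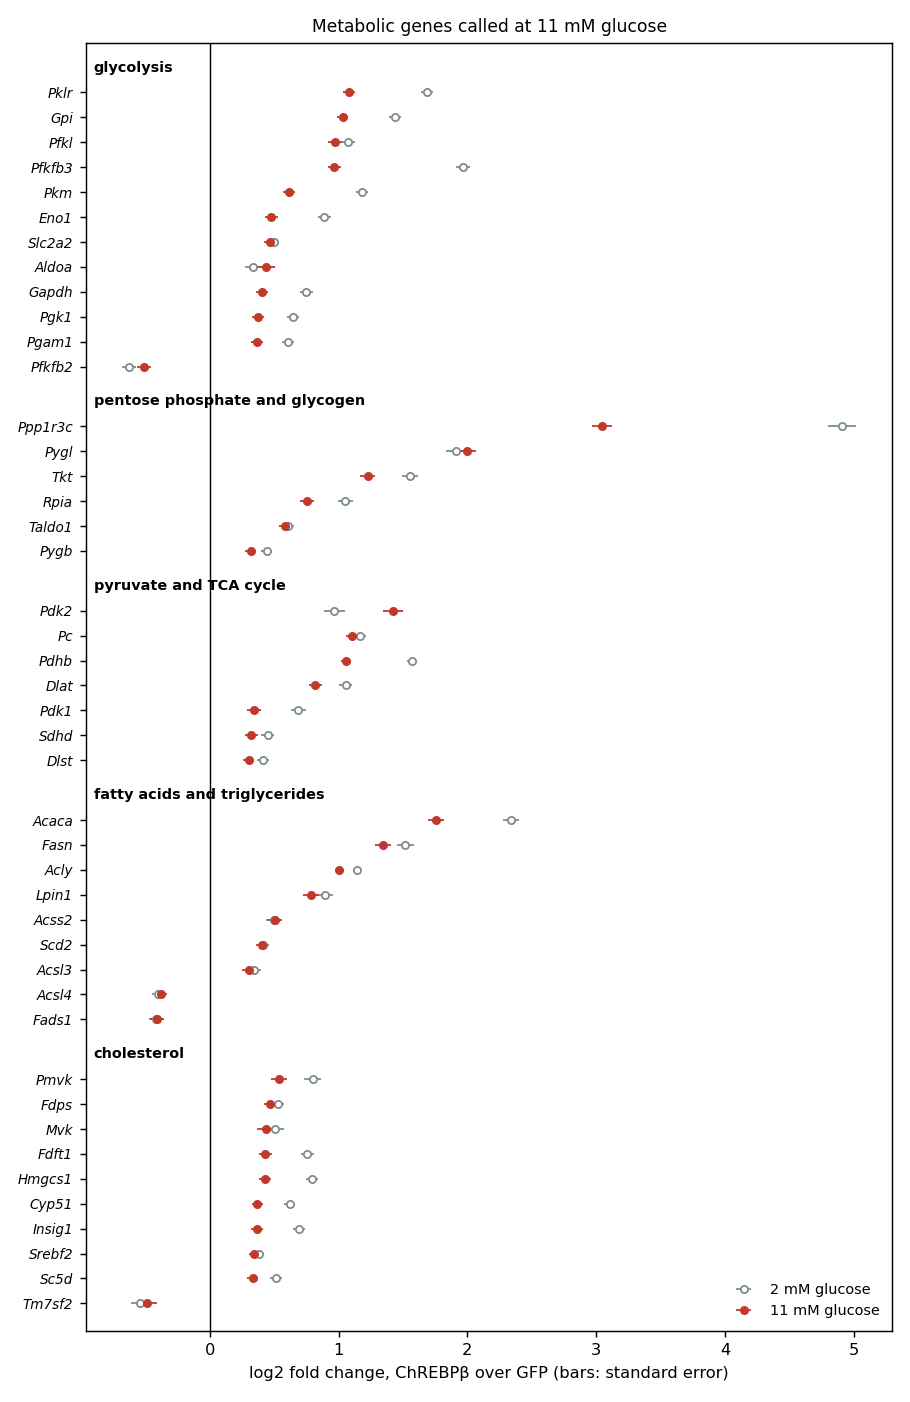
Log2 fold change of ChREBPβ over GFP at 11 mM (filled red) and at 2 mM glucose (open grey) for the members of 5 metabolic lists reported here that were differentially expressed at 11 mM with a mean of at least 5 CPM. Bars are standard errors. At 11 mM Ppp1r3c (3.05), Pygl (2.00) and Acaca (1.75) lie farthest to the right, and only Pfkfb2, Acsl4, Fads1 and Tm7sf2 lie left of 0.

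In nucleotide synthesis 3 of 20 tested members rose and 1 fell. The share that rose was close to that of all tested genes (14.3%), so by this count the list does not stand out. Cad, which starts pyrimidine synthesis, was at 139, 151 and 141 CPM with GFP and 227, 211 and 198 CPM with ChREBPβ (log2 fold change 0.56 ± 0.06, edgeR adjusted p = 7.19e-08), and Rrm2, a subunit of ribonucleotide reductase, rose by 0.45. In ribosome biogenesis 7 of 29 rose and 0 fell, among them the nucleolar proteins Ncl (0.42), Npm1 (0.42) and Dkc1 (0.36) and the RNA polymerase I subunit Polr1b (0.35). All but Ubtf had a positive value and the median was 0.20. The count fell to 4 with library totals or upper quartile factors and rose to 11 without replicate a of ChREBPβ at 11 mM. Of 29 DNA replication genes 2 rose and 1 fell, Mcm10 (0.43), Mcm7 (0.27) and Cdc6 (-0.32), with 4 rising under DESeq2 or RLE factors and 1 under library totals, upper quartile factors or without replicate c of ChREBPβ at 11 mM, while Pcna was at 506, 482 and 498 CPM with GFP and 485, 493 and 506 CPM with ChREBPβ. Among mitotic genes 9 of 26 rose and 0 fell, but 3 rose with library totals and 5 with upper quartile factors, and 1 fell with either and without replicate a of ChREBPβ or c of GFP at 11 mM. Aurka, a spindle kinase, was at 93.6, 94.5 and 93.0 CPM with GFP and 129, 137 and 132 CPM with ChREBPβ (log2 fold change 0.50 ± 0.04, edgeR adjusted p = 2.45e-09), and Birc5, survivin, rose by 0.44.

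At the entry to the cell cycle the changes were larger but in different directions. Of 17 tested G1 cyclins, kinases and inhibitors 4 rose and 3 fell. Beside Ccnd1, Ccnd2, cyclin D2, was at 119.7, 139 and 132 CPM with GFP and 248, 246 and 243 CPM with ChREBPβ (log2 fold change 0.92 ± 0.06, edgeR adjusted p = 6.92e-11), and Cdkn1a, the inhibitor p21, at 70.6, 65.5 and 71.4 CPM with GFP and 155, 166 and 167 CPM with ChREBPβ (log2 fold change 1.23 ± 0.04, edgeR adjusted p = 1.43e-14). Activator and inhibitor were thus both about 2-fold higher in every library. Ccnd3 (-0.32), the pocket protein Rbl2 (-0.42) and the inhibitor Cdkn2c (-0.46) fell, and E2f1 (-0.10), Ccne1 (0.07) and Cdk2 (-0.12) did not pass the test. Cdkn1a is also a target of p53, the stress-activated tumour suppressor. Of 22 tested p53 targets 13 rose and 3 fell, 6 with library totals and 5 with upper quartile factors or with ChREBPβ library a at 11 mM left out, and the median was 0.30. Gadd45a, a stress sensor, was at 24.8, 24.7 and 26.2 CPM with GFP and 75.8, 80.4 and 84.7 CPM with ChREBPβ (log2 fold change 1.67 ± 0.06, edgeR adjusted p = 4.45e-15). Plk2 rose by 1.32, Phlda3, an inhibitor of Akt, by 0.97, Btg2 by 0.70, Aen by 0.59 and Ccng1 by 0.51. Perp (-0.56), a membrane protein, and Gdf15 (-0.41), a secreted stress hormone, fell.

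β-cell transcription factors mostly fell, 13 of 21 tested against 2 that rose. Nkx6-1, which holds β-cell identity, was at 65.2, 67.1 and 65.3 CPM with GFP and 26.0, 23.4 and 24.1 CPM with ChREBPβ (log2 fold change -1.42 ± 0.05, edgeR adjusted p = 3.07e-14). Isl1, a LIM homeobox factor of all islet cells, was at 189, 188 and 172 CPM with GFP and 78.6, 76.5 and 78.6 CPM with ChREBPβ (log2 fold change -1.23 ± 0.05, edgeR adjusted p = 2.78e-14). Pax6 was at 358, 361 and 353 CPM with GFP and 182, 184 and 186 CPM with ChREBPβ (log2 fold change -0.96 ± 0.04, edgeR adjusted p = 4.75e-14). For these 3 factors every ChREBPβ library lay far below every GFP library. Glis3 (-1.34), Mnx1 (-1.12), Foxa1 (-0.85), Pdx1 (-0.78), Mafa (-0.76), Nkx2-2 (-0.69), Rfx6 (-0.57) and St18 (-0.54) also fell. Pax4 went the other way at a low level (0.115 to 0.695 CPM). Neurod1 (-0.23) and Hnf4a (-0.20) stayed under the minimum fold change, Neurod1 passing it with library totals and upper quartile factors and Hnf4a with library totals.

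Hormone transcripts fell with them, 4 of 7 tested against 1 that rose. Ins1 was at 9182, 8116 and 9063 CPM with GFP and 3465, 3833 and 3518 CPM with ChREBPβ (log2 fold change -1.29 ± 0.06, edgeR adjusted p = 1.93e-13). Iapp, the amyloid peptide released with insulin, was at 1959, 1986 and 1923 CPM with GFP and 751, 754 and 799 CPM with ChREBPβ (log2 fold change -1.35 ± 0.04, edgeR adjusted p = 2.63e-16). The groups were far apart for both. Ins2 was at 45.1, 38.5 and 47.7 CPM with GFP and 17.7, 20.5 and 21.3 CPM with ChREBPβ, and reads of the near-identical insulin genes can be split between them, so its value is uncertain. Cck, cholecystokinin, was the hormone that rose, at 23.8, 20.9 and 23.6 CPM with GFP and 79.5, 86.2 and 90.4 CPM with ChREBPβ (log2 fold change 1.90 ± 0.07, edgeR adjusted p = 1.08e-14). None of the 19 tested granule proteins and processing enzymes rose and 13 fell. The prohormone convertases Pcsk1 (-1.29) and Pcsk2 (-1.21) cut proinsulin, and Pcsk2 was at 1547, 1585 and 1587 CPM with GFP and 684, 674 and 681 CPM with ChREBPβ. Carboxypeptidase E, Cpe (-0.71), the amidating enzyme Pam (-0.81), the granins Scg2 (-1.18), Scg3 (-0.83) and Chgb (-0.74), the granule membrane protein Ptprn (-0.86) and the granule zinc transporter Slc30a8 (-0.89) fell as well. Chga fell by 0.28 on the log2 scale, which DESeq2, RLE factors and the fit that lacked GFP library a at 11 mM placed under the minimum fold change. Scg5 (0.22), which passed without replicate a of ChREBPβ at 11 mM, Hid1 (0.17) and Ptprn2 (0.07) did not pass the test.

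**Figure D4:**
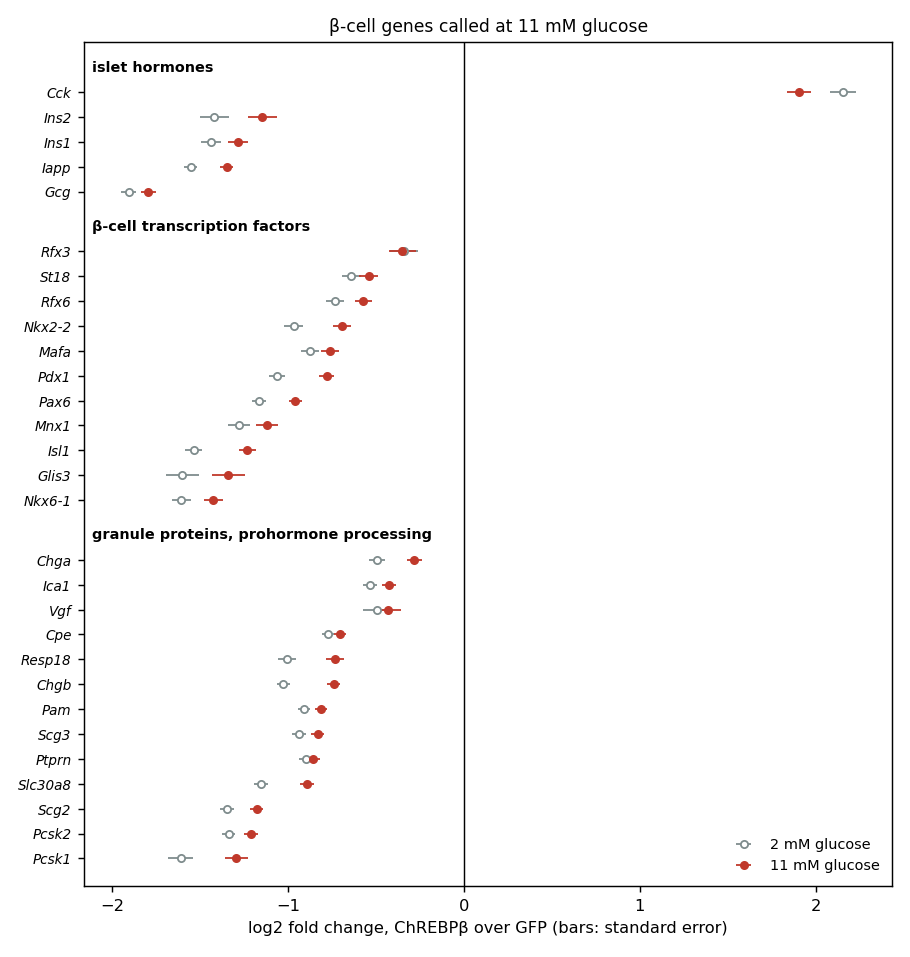
Log2 fold change of ChREBPβ over GFP at 11 mM (filled red) and 2 mM glucose (open grey), with standard errors, for the islet hormones, β-cell transcription factors and granule or processing proteins reported here that were differentially expressed at 11 mM with a mean of at least 5 CPM. Of the genes shown, all but Cck (1.90) lie left of 0.

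The machinery that releases granules was less uniform. Of 24 tested exocytosis genes 4 rose and 8 fell, and 2 rose with library totals. The granule GTPases Rab27a (-0.77) and Rab3b (-0.68), the Rab effector Sytl4 (-0.61) and the SNARE protein Snap25 (-0.39) fell. Syt4 (0.50), a synaptotagmin, rose. The excitability channels split 6 to 7 among 27. Kcnj11, the pore of the ATP-sensitive potassium channel, was at 355, 339 and 348 CPM with GFP and 247, 249 and 238 CPM with ChREBPβ (log2 fold change -0.51 ± 0.04, edgeR adjusted p = 9.25e-10), while its partner Abcc8 (-0.14) stayed under the minimum. Kcnk3, a potassium leak channel, was at 43.2, 45.2 and 47.9 CPM with GFP and 118, 109.8 and 113 CPM with ChREBPβ (log2 fold change 1.32 ± 0.06, edgeR adjusted p = 1.98e-13). The calcium channel genes Cacna1h (0.85) and Cacna1c (0.37) rose and Cacna1b (-0.46) fell. Of 26 receptors that control secretion 14 fell and 6 rose. Gpr119, a receptor for lipid amides, was at 89.9, 94.4 and 88.7 CPM with GFP and 37.3, 36.2 and 36.5 CPM with ChREBPβ (log2 fold change -1.31 ± 0.06, edgeR adjusted p = 1.68e-13), and the prolactin receptor Prlr at 45.6, 57.2 and 48.2 CPM with GFP and 25.0, 23.7 and 23.6 CPM with ChREBPβ (log2 fold change -1.06 ± 0.07, edgeR adjusted p = 1.62e-10). The incretin receptors Gipr (-0.70) and Glp1r (-0.47) fell, while Ffar1 was at -0.11 and did not pass. Casr, the calcium-sensing receptor, was at 6.37, 8.84 and 6.35 CPM with GFP and 21.9, 20.4 and 18.8 CPM with ChREBPβ (log2 fold change 1.52 ± 0.10, edgeR adjusted p = 1.64e-10), and Adcyap1r1 (0.54), Sstr3 (0.53) and Gcgr (0.39) rose too.

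Genes that mature β-cells keep low moved upward more often than down, 9 of 19 tested against 2. Sox9, a progenitor factor that is also one of the duct markers, was at 1.02, 1.23 and 0.994 CPM with GFP and 8.80, 8.14 and 9.69 CPM with ChREBPβ (log2 fold change 3.04 ± 0.14, edgeR adjusted p = 4.16e-13), while the duct markers Cftr and Spp1 had no count. Hes1, a Notch target, was at 7.15, 5.95 and 5.73 CPM with GFP and 27.1, 29.2 and 30.1 CPM with ChREBPβ (log2 fold change 2.20 ± 0.09, edgeR adjusted p = 1.78e-13). Slc16a1, the lactate carrier MCT1, was at 15.2, 14.1 and 14.2 CPM with GFP and 36.1, 38.4 and 38.8 CPM with ChREBPβ (log2 fold change 1.38 ± 0.06, edgeR adjusted p = 4.78e-13). Each was at a low level in the control cells and higher in all 3 ChREBPβ libraries. Zcchc24 (1.44) and Tpm2 (1.78) rose also, and Igfbp4 (-0.45) and Lmo4 (-0.41) fell. The S100 calcium-binding proteins rose in 5 of 7 tested, with S100a6 from 0.0428 to 0.568 CPM, S100a3 at 1.88, 0.830 and 1.92 CPM with GFP and 4.33, 5.84 and 5.54 CPM with ChREBPβ (log2 fold change 1.73 ± 0.23, edgeR adjusted p = 3.86e-06), S100a5 rising by 1.48 and S100a10 by 0.54. S100a1 (0.04) and S100a13 (-0.10) did not pass.

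Matrix and mesenchymal genes did not share a direction. Of 18 tested matrix genes 4 rose and 4 fell, with 2 rising without replicate a of GFP at 11 mM. Against Tnxb and Adamts8 stood Fn1, fibronectin, at 979.7, 1265 and 998 CPM with GFP and 677, 598 and 543 CPM with ChREBPβ (log2 fold change -0.83 ± 0.10, edgeR adjusted p = 1.55e-06), Col6a2 (-0.79) and Timp2 (-0.52). Of 22 cytoskeletal and mesenchymal genes 7 rose and 5 fell, with 4 and 3 under a filter of at least 10 counts in every library, and 3 falling without replicate c of ChREBPβ at 11 mM. Snai1, a repressor of epithelial genes, was at 0.398, 0.402 and 0.338 CPM with GFP and 9.36, 9.32 and 9.05 CPM with ChREBPβ (log2 fold change 4.60 ± 0.18, edgeR adjusted p = 5.77e-14). Its relative Snai2 (-0.71) fell, a call lost without replicate c of ChREBPβ at 11 mM, and so did vimentin, Vim, from a level close to 0, at 0.354, 0.509 and 0.423 CPM with GFP and 0.119, 0.228 and 0.0549 CPM with ChREBPβ. Emp1, a membrane protein of epithelia, was at 3.41, 3.56 and 4.55 CPM with GFP and 15.6, 13.5 and 17.2 CPM with ChREBPβ (log2 fold change 2.00 ± 0.11, edgeR adjusted p = 7.91e-12). Cdh1 (0.01) and Cdh2 (-0.0038), the epithelial and neural cadherins, did not pass, and their groups were close together.

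Axon guidance genes changed strongly both ways, 12 higher and 12 lower of 35 tested. Plxna1, a semaphorin receptor, was at 153, 169.8 and 159.7 CPM with GFP and 886, 842 and 785 CPM with ChREBPβ (log2 fold change 2.38 ± 0.05, edgeR adjusted p = 4.8e-18). Unc5a, a netrin receptor, was at 122, 124 and 128 CPM with GFP and 509.5, 527 and 506 CPM with ChREBPβ (log2 fold change 2.04 ± 0.04, edgeR adjusted p = 3.82e-18). Its relative Unc5c was at 54.3, 62.0 and 55.5 CPM with GFP and 24.8, 23.5 and 19.7 CPM with ChREBPβ (log2 fold change -1.34 ± 0.08, edgeR adjusted p = 1.87e-11). Unc5a and Unc5c thus moved in opposite directions with no overlap. Efna1 (3.07), the netrin receptor Dcc (2.19) and Sema3e (1.87) rose, and Ntn1, netrin 1 (-1.15), Efnb2 (-0.77) and Nrp1 (-0.66) fell. Among 18 growth factor receptors 5 rose and 9 fell. Igf1r (-0.86), Ntrk2 (-0.77) and Met (-0.47) fell and Kit (0.51) and Ret (0.58) rose, with Kit at 389, 426 and 413 CPM with GFP and 627, 554 and 569 CPM with ChREBPβ. In the BMP, activin and TGF-β group 7 of 22 rose and 3 fell. The inhibitors of DNA binding moved apart: Id2 (1.56) and Id1 (0.74) rose, Id4 was at 94.5, 99.0 and 96.2 CPM with GFP and 38.8, 40.7 and 38.9 CPM with ChREBPβ (log2 fold change -1.29 ± 0.07, edgeR adjusted p = 6.58e-12), and Id3 (-0.15) did not pass.

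The integrated stress response and the chaperones of the endoplasmic reticulum (ER) moved in opposite directions. In the first, a programme that the factor Atf4 drives, 11 of 21 tested members rose and 1 fell, Sesn2 (-0.28), which was lost with DESeq2, RLE factors and without replicate c of ChREBPβ at 11 mM. Atf3 was at 4.87, 4.29 and 5.06 CPM with GFP and 31.1, 34.0 and 33.9 CPM with ChREBPβ (log2 fold change 2.79 ± 0.07, edgeR adjusted p = 8.5e-17). Asns, asparagine synthetase, was at 88.4, 88.7 and 96.6 CPM with GFP and 236, 239 and 247 CPM with ChREBPβ (log2 fold change 1.40 ± 0.04, edgeR adjusted p = 9.38e-16). Atf4 was at 169, 157 and 171 CPM with GFP and 219.9, 226 and 249 CPM with ChREBPβ (log2 fold change 0.48 ± 0.05, edgeR adjusted p = 8.07e-08). These 3 genes were higher in every ChREBPβ library. Chac1 (1.13), Slc7a11 (1.05), Trib3 (0.86) and Psat1 (0.53) rose as well, while Ddit3 (-0.09), which encodes CHOP, did not pass. In the second list 10 of 24 fell and 3 rose. Hspa5, the main ER chaperone BiP, was at 1493, 1445 and 1518 CPM with GFP and 1091, 1087 and 1107 CPM with ChREBPβ (log2 fold change -0.44 ± 0.04, edgeR adjusted p = 6.34e-09). Sdf2l1 (-1.29), Pdia6 (-0.68), Creld2 (-0.65), Hyou1 (-0.57) and Hsp90b1 (-0.40) also fell. The 3 that rose were the stress sensors Eif2ak3 (0.61) and Ern1 (0.41) and the degradation factor Herpud1 (0.41). Heat shock genes had 2 of 10 higher, Hspe1 (0.40) and Bag3 (0.31), of which Bag3 was lost with library totals and without replicate b of GFP at 11 mM. Nrf2 and antioxidant genes had 6 of 21 higher and 1 lower, with Prdx2 at 509, 459 and 521 CPM with GFP and 694, 751 and 783 CPM with ChREBPβ (log2 fold change 0.58 ± 0.06, edgeR adjusted p = 5.95e-08), Nfe2l2, which encodes Nrf2, at 0.37, while the glutathione synthesis gene Gclm fell by 0.41 on the log2 scale. The classic targets Nqo1 (-0.19) and Hmox1 (0.05) did not pass, though Nqo1 passed as lower with library totals and without replicate c of ChREBPβ at 11 mM. With these the list had 3 lower members, and 2 with upper quartile factors or without replicate b of ChREBPβ or a or b of GFP at 11 mM.

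Signal-induced genes were mixed. Of 20 AP-1 and immediate early genes 4 rose and 4 fell, with Junb at 43.1, 39.4 and 44.0 CPM with GFP and 97.2, 103 and 99.5 CPM with ChREBPβ (log2 fold change 1.24 ± 0.05, edgeR adjusted p = 6.87e-14) against Jun (-0.48), Egr1 (-0.70) and Nr4a1 (-0.69), which fell. Among ERK feedback genes 7 of 15 rose and 3 fell, 5 with library totals. Dusp4, a phosphatase of MAP kinases, was at 17.5, 19.2 and 18.3 CPM with GFP and 71.7, 68.9 and 66.2 CPM with ChREBPβ (log2 fold change 1.91 ± 0.06, edgeR adjusted p = 2.49e-15), and Spry2 (0.60) and Spry4 (0.44) rose while Spry1 (-0.77) fell. Of 21 hypoxia genes 8 rose and 5 fell. Egln3, an oxygen-sensing hydroxylase, was at 21.5, 20.8 and 21.0 CPM with GFP and 61.2, 65.0 and 66.4 CPM with ChREBPβ (log2 fold change 1.60 ± 0.05, edgeR adjusted p = 4.46e-15), and Epas1, which encodes HIF-2α, at 70.0, 74.2 and 69.7 CPM with GFP and 31.2, 29.4 and 29.0 CPM with ChREBPβ (log2 fold change -1.25 ± 0.05, edgeR adjusted p = 2.52e-14). Neither Hif1a (-0.07) nor Vegfa (-0.0002) passed the test. Of 19 clock genes 8 rose and 2 fell, 4 with library totals. Bhlhe40, a repressor that binds E-boxes, was at 78.2, 75.6 and 79.2 CPM with GFP and 228, 241 and 241 CPM with ChREBPβ (log2 fold change 1.61 ± 0.05, edgeR adjusted p = 7.13e-16). Bhlhe41 (1.00), Nr1d1 (1.28), Ciart (1.50) and Arntl (0.71), which encodes BMAL1, rose too, and Cry2 (-0.34) fell.

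Interferon and antigen presentation genes had 6 of 22 higher and 6 lower, among them Irf7 (0.83) and Tap1 (0.65), which rose, and Stat2 (-0.63), which fell. Of 27 lysosome and autophagy genes 3 rose and 8 fell, 1 rising with library totals or upper quartile factors. Neu1, a sialidase, was at 36.1, 32.7 and 35.2 CPM with GFP and 19.9, 18.9 and 19.2 CPM with ChREBPβ (log2 fold change -0.84 ± 0.07, edgeR adjusted p = 2.32e-09), Ctsa (-0.47) and Ctsd (-0.30) fell, and Ulk1, the kinase that starts autophagy, was at 90.4, 103 and 95.8 CPM with GFP and 180.5, 160.1 and 157 CPM with ChREBPβ (log2 fold change 0.78 ± 0.06, edgeR adjusted p = 5.29e-10).

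Among the 10 differentially expressed genes with the most reads, in CPM not corrected for length, Chga, Ins1, Chgb, Acly and Scd2 have been described. Eef2, a translation elongation factor, was at 4609, 4332 and 4554 CPM with GFP and 5533, 5868 and 5822 CPM with ChREBPβ (log2 fold change 0.35 ± 0.04, edgeR adjusted p = 8.66e-07). Atp5b, a subunit of the ATP synthase, rose by 0.31 and the ribosomal protein gene Rps2, which has many near-identical copies, by 0.32, and both were lost with library totals. The mitochondrial transcripts Mt-co1 (0.35) and Mt-cox3 (-0.34) moved in opposite directions. Mt-co1 was at 4048, 4170.1 and 4376 CPM with GFP and 6155, 5328 and 4571 CPM with ChREBPβ and Mt-cox3 at 2664, 2617 and 2736 CPM with GFP and 2351, 2120.0 and 1865 CPM with ChREBPβ. Both calls are uncertain, since the ChREBPβ libraries spread widely, DESeq2 called neither, and leaving out replicate a or b of ChREBPβ or a of GFP at 11 mM ended the first, and leaving out c of ChREBPβ at 11 mM the second.

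The same contrast at 2 mM glucose, which shares no library with that at 11 mM, gave 3075 higher (21.0%) and 3401 lower genes (23.2%). Of the 2102 genes higher at 11 mM, 1765 were also higher at 2 mM, which is 84.0% of the former and 57.4% of the latter. Of the 2802 lower genes 2379 were also lower at 2 mM, 84.9% and 70.0%. The effect itself was tested for a difference between glucose levels. It was more positive at 11 mM for 229 genes (1.56%) and more negative for 696 (4.74%). The first count was 130 without replicate c of GFP at 11 mM, and 137 and 140 without replicates b and c of ChREBPβ at 2 mM. Among genes higher at 11 mM the effect was smaller than at 2 mM for 364 and larger for 46, and among the lower genes smaller for 94 and larger for 13.

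The 6 genes with the most negative difference are given with their levels in all 4 groups. The effect of glucose in GFP cells shares the GFP libraries at 11 mM with the effect of the virus, so that only values are set side by side. Txnip was at 26.3 ± 1.73 CPM with GFP at 2 mM, 351 ± 18.2 CPM with GFP at 11 mM, 457 ± 13.0 CPM with ChREBPβ at 2 mM and 666 ± 9.79 CPM with ChREBPβ at 11 mM (mean ± SD, n = 3). Its effect was 4.12 at 2 mM and 0.93 at 11 mM on the log2 scale, a difference of -3.20 (edgeR adjusted p = 7.35e-17). Prok2 was at 0.427 ± 0.240, 4.86 ± 0.955, 53.3 ± 3.65 and 55.6 ± 5.15 CPM in the same order, a difference of -3.47 (edgeR adjusted p = 6.49e-08). For both genes the GFP libraries at 2 mM stood apart at the bottom and the ChREBPβ libraries at 11 mM were the highest on average. Emp1 (-3.64), Ramp1, a subunit of peptide receptors (-3.44), Col5a3, a fibrillar collagen (-3.39), and Calhm2 (-3.21) had differences of like size, and at 11 mM their changes with ChREBPβ were 2.00, 2.07, 2.18 and 2.93. All but Txnip were under 1 CPM with GFP at 2 mM, where a fitted fold change depends on the prior count.

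Some gene lists held many of these differences, against 4.74% of all tested genes. In ribosome biogenesis 28 of 29 genes were higher at the lower and 7 at the higher glucose level, and the difference itself passed for 20, all with the smaller effect at 11 mM. For DNA replication these counts were 18 and 2, with 12 differences. Among ChREBP targets the difference passed for 9 of 21 and in glycolysis for 8 of 20, each with the more negative effect at 11 mM. Ccnd1 had log2 fold changes of 5.82 and 6.01 at 2 and 11 mM and a difference of 0.19 (edgeR adjusted p = 0.62), and Ngfr 3.97 and 4.25 with a difference of 0.27 (edgeR adjusted p = 0.223). Glucose in the GFP cells gave 0.28 and 0.07 for these 2 genes, neither past the test.

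Genes with a larger effect or one seen at 11 mM alone were fewer. Of the 337 genes higher at 11 mM and not at 2 mM, the difference passed for 27, and of 421 lower genes for 11. Tgfb1, the growth factor TGF-β1, was at 0.642, 0.911 and 1.02 CPM with GFP and 1.94, 1.72 and 2.08 CPM with ChREBPβ at 11 mM, with a change of 1.16 there and -0.01 at 2 mM, a difference of 1.17 (edgeR adjusted p = 0.0225). Ndrg1, a hypoxia gene, was at 443, 402 and 413 CPM with GFP and 522, 575 and 574 CPM with ChREBPβ, with 0.41 and 0.01, a difference of 0.40 (edgeR adjusted p = 0.000571). For both genes the change at 2 mM was close to 0 and the difference passed the test. Blnk, an adaptor of immune receptors, rose by 1.35 at 11 mM and 0.52 at 2 mM (difference 0.83), and LOC688553 by 3.49 and 2.58 (difference 0.91). For others of the most positive differences the decrease was smaller at 11 mM or absent from the calls there, with Col6a6 at -1.64 at 2 mM and -0.84 at 11 mM, Pdgfra at -1.12 and -0.13, and Tppp3 at -0.81 and 0.16. Pdgfra and Tppp3 did not pass at 11 mM.

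Only 2 genes were called in opposite directions. AABR07067829.1 was at 4.84, 11.1 and 4.78 CPM with GFP and 4.49, 3.23 and 2.07 CPM with ChREBPβ, with a change of -1.06 at 11 mM and 0.87 at 2 mM. LOC680121 was at 27.1, 54.9 and 24.1 CPM with GFP and 27.7, 21.1 and 13.8 CPM with ChREBPβ, with -0.75 and 0.96. In both, replicate b of GFP stood well above the other GFP libraries, and without it neither was differentially expressed at 11 mM, LOC680121 not without replicate b or c of ChREBPβ either.

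**Figure D5:**
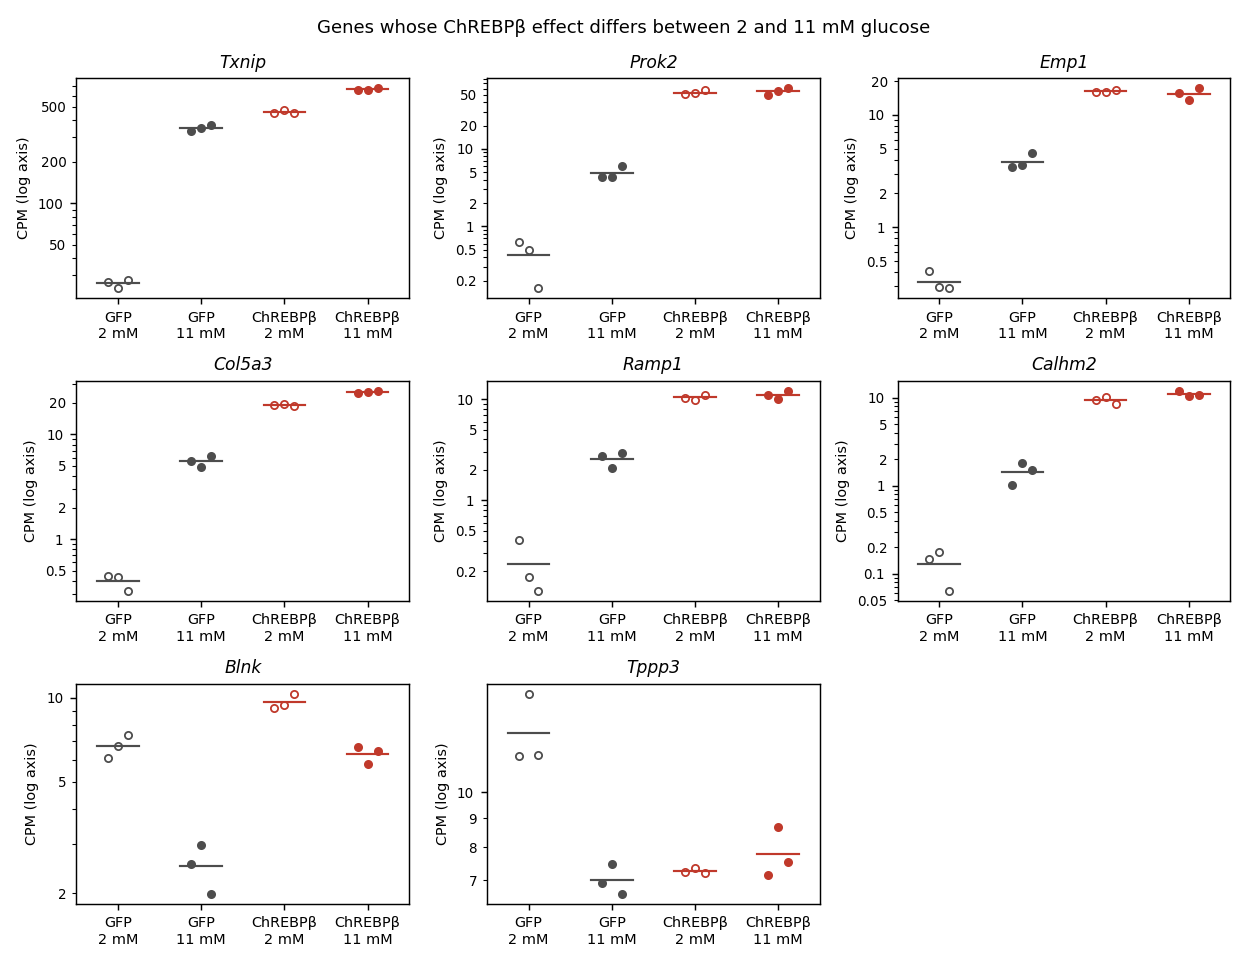
TMM-scaled CPM on a log axis in the 12 libraries for 8 genes whose ChREBPβ effect differed between glucose levels. Grey points are GFP and red points ChREBPβ libraries, open at 2 mM and filled at 11 mM, with lines at group means. In the upper 6 panels GFP at 2 mM is far below the other groups, as for Txnip at 26.3 CPM against 351, 457 and 666 CPM.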

How the data were processed

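RNA from INS-1 832/13 cells was amplified (NuGEN Ovation RNA-Seq System V2) and sequenced in 12 libraries, of which the 6 at 11 mM glucose carry the main comparison and the 6 at 2 mM the test of a difference. The authors deposited a table of raw read counts per gene, with 28727 named genes and 1 row without a name, left out, which held at most 0.00601% of counts. The processing notes name Rnor_6.0 and edgeR. Aligner, counter and strand setting are not given in the sources used here, so overlapping and antisense genes cannot be told apart. Group means in the table were not used.

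Genes were kept by edgeR's filterByExpr (14669 genes), library sizes were scaled by TMM (factors 0.958 to 1.06), and all 4 groups entered 1 quasi-likelihood fit (edgeR 4.0.16, R 4.3.3). Genes counted as differentially expressed had an adjusted p (Benjamini-Hochberg) under 0.05 and differed by 1.2-fold or more. The difference of effects was an interaction contrast, and standard errors are on the log2 scale. A fold change is relative to TMM scaling. Replicates differed by more than counting noise (chi-square per degree of freedom 3.13 to 17.6), so each was counted. The scripts were tested on simulated data. The members and gene lists were chosen with earlier results of these data known, and counts of list members describe the lists without a test.

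Named genes were list members, beginning with the largest changes in each list, Mlxipl, the ChREBPb entry, Txnip and Pklr, the 15 largest increases and decreases among differentially expressed genes of at least 5 CPM with separate groups, the 10 most abundant, the 6 most positive and most negative differences between glucose levels, genes called in opposite directions, and genes near 0 in one group. Of 926 list entries 912 matched the table, and the other genes were not analysed here. Values of some members are not reported here. Alternatives were DESeq2 1.42.0, other scalings and filters, other fold rules, thinned counts, a replicate block and each library left out. Promoter sequences are RefSeq's (GRCr8), matched by symbol.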

Additional observations from a re-analysis of the deposited data

Results flagged for a closer look

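The difference between glucose levels was itself tested, and it is listed here because it passed for 229 genes in the positive and for 696 in the negative direction (11 against 2 mM). Among named genes the differences, on the log2 scale as 11 mM minus 2 mM, were -3.20 for Txnip, -3.47 for Prok2, -3.64 for Emp1, -3.44 for Ramp1, -3.39 for Col5a3 and -3.21 for Calhm2 on the negative side. On the positive side they were 0.98 for Pdgfra, 0.97 for Tppp3, 0.91 for LOC688553, 0.83 for Blnk, 0.80 for Col6a6, 1.17 for Tgfb1 and 0.40 for Ndrg1. Groups of 3 libraries are too small for the test of single outlying libraries.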

How the results depend on the processing

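Counts of differentially expressed genes depended most on the fold rule. At 11 mM, 3457 genes were higher with no minimum fold change, 571 with a minimum of 2-fold and 1329 in a test against 1.2-fold, and 421 and 1634 were lower under the last 2. At 2 mM a minimum of 2-fold left 748 higher and 708 lower genes. The difference between glucose levels then held for 11 genes on the positive and 97 on the negative side, and for 14 and 180 in the test against 1.2-fold. Leaving out each library in turn gave 1966 to 2167 higher and 2609 to 2829 lower genes at 11 mM, 2977 to 3134 and 3159 to 3430 at 2 mM, 130 to 278 positive and 539 to 800 negative differences, and 23 to 24 lists with a positive median. Same-letter libraries did not deviate together (r -0.11, -0.08 and 0.02 at 11 mM, 0.05, 0.02 and 0.03 at 2 mM), so the letters were not used as pairs. With a replicate block the counts were 2079 and 2782 at 11 mM, 3076 and 3373 at 2 mM, and 220 and 692 for the difference, with 23 lists of positive median. With library totals 29.3% of the genes called at 11 mM were higher, against 42.9% with TMM factors, 37.1% with upper quartile factors and 46.5% with DESeq2.

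Of the 291 genes named, 254 were differentially expressed at 11 mM. Under the alternatives that kept the 1.2-fold minimum, 222 of these were tested and called in all, 17 were called wherever tested but not tested in at least 1, and 15 were lost in at least 1, while 143 were lost at 2-fold and 25 in the test against 1.2-fold. No direction reversed. Counts of list members stayed within 1.5 times in 1801 of 1890 such comparisons, and small counts moved most. The cause was not tested. Depth limits genes of few counts, for which a missed call does not show equal levels.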
